A study of Gallus gallus with 24 samples.

Results

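The 6 genes described here are the protein genes of the chicken mitochondrial chromosome that do not belong to complex I. They are CYTB of complex III, COX1, COII and COX3 of complex IV, and ATP8 and ATP6 of complex V. They were chosen as the genes listed on chromosome MT whose name does not start with ND, which gave 6 of the 13 mitochondrial genes and 6 of the 15618 genes in the table. All 6 passed the filter on low values. The jejunum, which lies between duodenum and ileum, was sequenced from 24 chickens in 4 groups of 6 birds. HAS and LAS are chicken lines selected in opposite directions for how much antibody they make against sheep red blood cells (SRBC). HASI and LASI birds were injected with SRBC, HASN and LASN birds were not, and the label gives 5 days post injection for every bird, uninjected birds included. Age, sex, route and dose of injection are not given in the sources used here, and all birds belong to one or the other selected line, with no unselected line beside them.

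Mitochondria make ATP by passing electrons along a chain of protein complexes in their inner membrane and by letting the protons pumped out along the way flow back through ATP synthase. Complex III, which holds cytochrome b, hands electrons to cytochrome c. Complex IV, cytochrome c oxidase, hands them on to oxygen, and complex V is the ATP synthase itself. Each complex is built from a few subunits encoded by the mitochondrial chromosome and many more encoded in the nucleus. In vertebrates the mitochondrial genes are transcribed as long precursors that are cut into single messages, mostly at the transfer RNAs between them, and ATP8 and ATP6 stay together on 1 message. The lining of the small intestine takes up nutrients by active transport and is rich in mitochondria.

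In the coordinates of the deposited table (galGal6, plus strand), COX1 lies at chrMT:6645-8192 and COII at chrMT:8331-9014. ATP8 lies at chrMT:9085-9249, ATP6 at chrMT:9240-9923 and COX3 at chrMT:9923-10706. CYTB lies apart from these, at chrMT:14893-16035. ATP8 spans 165 bases, the shortest of the 13 genes, and its last 10 bases are also the first of ATP6. ATP6 and COX3 share 1 base. How reads in the shared bases were assigned is not given in the sources used here, and the split between ATP8 and ATP6 is uncertain at least to that extent.

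Values are TPM, a unit of transcript abundance, which divide a gene's reads by its length and scale each library to the same total over the genes listed. The depth of the libraries is unknown, since TPM holds no read counts. Any 2 libraries correlated at between 0.853 and 0.990 on log2(TPM + 1). Of the 15 epithelial markers listed, 12 were in the table, and their summed level ran from 30903 to 65880 TPM. Every one of the 12 was above 0 in every library, from at least 53.9 TPM of APOB to at least 10759 TPM of APOA1, which alone made up a large part of the sum. The 9 smooth muscle markers summed to between 840 and 6555 TPM in 23 libraries and to 10798 TPM in LASI replicate 4. Exocrine pancreas markers summed to at most 9.49 TPM. Libraries also differed in how TPM depended on gene length. For each library, log2(TPM + 1) was regressed on log2 genomic span, and the slope, called the span slope here, was -0.22, -0.28 and -0.24 in HASN replicates 1 to 3 and 0.00, -0.02 and 0.01 in HASN replicates 4 to 6. Its mean was -0.12 for HASN, -0.16 for HASI, -0.05 for LASN and -0.18 for LASI.

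The 6 genes were among the most abundant messages of the jejunum. By mean TPM over 24 birds, COX1 ranked 1 among all genes, ATP6 2, COX3 3, COII 4, CYTB 6 and ATP8 29. Together they made up 13.8% ± 3.66 (SD, n = 6) of all TPM in HASN birds and 21.2% ± 5.07 in HASI birds, against 11.8% ± 2.69 for LASN and 17.2% ± 3.19 for LASI. The order of levels was the same in 17 of 24 birds, with COX1 above ATP6, COX3, COII, CYTB and ATP8 in that order. In 4 other birds only ATP6 and COX3 changed places. COX1 led in 21 birds, COX3 in 2 and ATP6 in 1. CYTB stood below the 4 others and ATP8 lowest of the 6 in all 24 birds. The neighbours ATP6 and COX3 did not keep a fixed order, ATP6 being higher in 18 birds, whereas COX3 was above COII in 24.

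The levels rose and fell together from bird to bird. Over 24 libraries the Pearson correlation of log2(TPM + 1) between 2 of the 6 genes ran from 0.663 to 0.986, and it ran from 0.810 to 0.986 among the 5 without ATP8. ATP8 correlated at 0.663 to 0.808 with the other members and at 0.884 with ND4L, a short gene of complex I that is no neighbour of it. All of these values share the same libraries and the same TPM scaling, and they are given as a description.

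The cytochrome b gene CYTB, the only mitochondrially encoded subunit of complex III, was measured at 15915, 20433, 14687, 12402, 13307 and 8846 TPM in HASN replicates 1 to 6. In HASI replicates 1 to 6 it was at 33836, 18969, 30304, 23669, 22003 and 21273 TPM. The highest HASN bird thus overlapped with the lowest HASI bird. LASN birds had 14146, 12247, 11959, 11704, 8394 and 6509 TPM of CYTB, and LASI birds had 22558, 21967, 18333, 16719, 17382 and 11738 TPM. Within LAS, 1 injected bird, replicate 6, lay within the uninjected range.

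ATP8, a small membrane subunit of ATP synthase, was at 2738, 2084, 2010, 1338, 1347 and 1330 TPM in HASN replicates 1 to 6. It was at 7981, 3924, 6684, 4705, 5594 and 4576 TPM in the 6 HASI birds. Every HASI bird was above every HASN bird. LASN birds had 3400, 2341, 2245, 2213, 4266 and 1133 TPM of ATP8, and LASI birds had 4696, 4133, 4299, 2262, 3991 and 3150 TPM. These LAS groups overlapped, with LASN replicate 5 above 4 of the LASI birds.

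COX1, which carries the oxygen-reducing centre of complex IV, averaged 33490 ± 7098 TPM (SD, n = 6) in HASN and 54053 ± 11243 in HASI, and 34022 ± 7025 in LASN and 41895 ± 11038 in LASI. The HASI birds, from 45422 TPM upward, did not overlap with the HASN birds, which reached 40823 TPM. COII, the subunit that takes electrons from cytochrome c, averaged 24718 ± 8174 TPM in HASN and 36134 ± 8950 in HASI, and 19850 ± 4544 in LASN and 32857 ± 6389 in LASI. COX3, the third core subunit of complex IV, averaged 31518 ± 10372, 42084 ± 10873, 25058 ± 6354 and 36907 ± 6390 TPM in the same order. ATP6, the subunit that forms part of the proton path of ATP synthase, averaged 32366 ± 8536, 48678 ± 12773, 25915 ± 6267 and 38832 ± 7884 TPM. For COII, COX3 and ATP6, injected and uninjected birds overlapped in both lines.

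**Figure D1:**
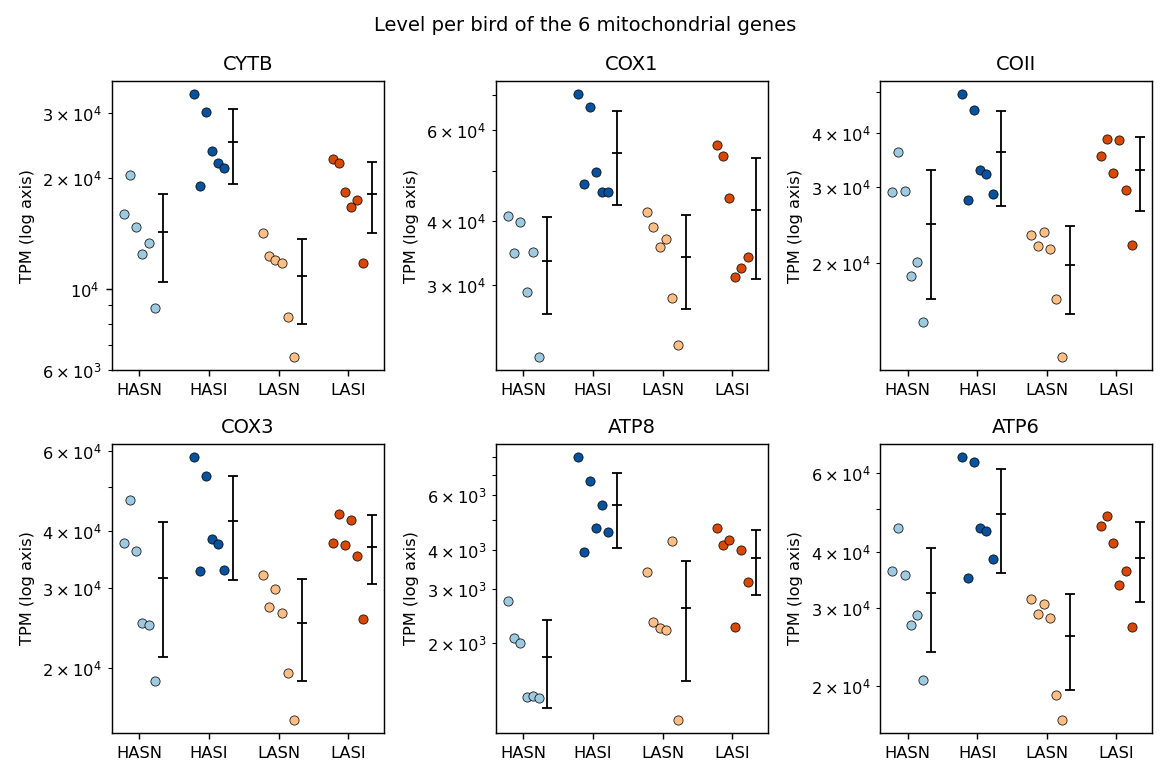
TPM of each of the 6 genes (log axis) in each bird, by group, with the points of a group placed from replicate 1 to 6 and the bar giving mean ± SD (n = 6). The means of the injected groups HASI and LASI lie above those of their uninjected groups, with overlap between birds except for COX1 and ATP8 in HAS. For ATP8 all 6 HASI birds, from 3924 TPM upward, lie above all 6 HASN birds, which reach 2738 TPM.

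The first comparison asked how injection changed the jejunum within each line. In HAS birds ATP8 and CYTB rose, ATP8 by 1.64 (SE 0.26) and CYTB by 0.82 (SE 0.21) on the log2(TPM + 1) scale, or 3.12-fold and 1.77-fold. The adjusted p was 0.0011 for ATP8 and 0.0396 for CYTB, from limma on all 13279 genes tested with Benjamini-Hochberg adjustment. Thus 2 of 6 genes were called higher, against 0.241% of all genes tested. Log2 fold changes that did not pass were 0.70 for COX1 (SE 0.19, adjusted p = 0.0571), ATP6 0.59 (SE 0.21, 0.165), COII 0.58 (SE 0.22, 0.199) and COX3 0.45 (SE 0.22, 0.308). The median over the 6 genes was 0.64, and over all genes tested it was -0.26.

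The HAS result depended on which libraries and which scaling entered. Without HASN replicates 1 to 3, the libraries with the steep span slope, all 6 genes were called higher, beside 2.76% of all genes, an alternative chosen after seeing the data. These 3 libraries also had more of the summed epithelial markers, 64550, 55614 and 63006 TPM, against 33332, 30903 and 37271 TPM in HASN replicates 4 to 6. A large part of these sums was APOA1, at 10759 to 35863 TPM over the HASN birds. Among the other markers, EPCAM ran from 1578 to 2354 TPM there and SLC15A1 from 228 to 1250 TPM. The part of these markers was not tested. With the span slope as a covariate 5 of the 6 genes were called in HAS, a fit whose share of all genes called is not given here. The CYTB call ended without HASN replicate 3, 4, 5 or 6 or HASI replicate 1, 3 or 4, taken out 1 at a time, with an adjusted p of up to 0.136, and after median-ratio rescaling, where its log2 fold change was 1.11 with the same adjusted p of 0.136.

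In LAS birds 4 of the 6 genes rose after injection. CYTB rose by 0.76 (SE 0.21, limma adjusted p = 0.018), COII by 0.74 (SE 0.22, 0.021), ATP6 by 0.60 (SE 0.21, 0.0348) and COX3 by 0.58 (SE 0.22, 0.0467) on the log2 scale. Of all genes tested, 2.18% were called higher. The log2 fold changes of ATP8 (0.61, SE 0.26, adjusted p = 0.0798) and COX1 (0.29, SE 0.19, 0.236) did not pass. The median was 0.60 over the 6 genes and -0.33 over all genes. The span slope moved with this comparison, from -0.05 in LASN to -0.18 in LASI on average. With it as a covariate none of the 6 was called, and the log2 fold change of CYTB was 0.38 (adjusted p = 0.22). Without LASN replicate 6 none was called either, and 1 was called without LASN replicate 5, LASI replicate 2 or LASI replicate 4 and 2 without LASI replicate 1, 3 or 5. The share of all genes called in these fits is not given here, so these counts are no result about the 6 genes alone.

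Averaged over both lines, all 6 genes rose after injection, where 2.33% of all genes tested were called higher. The average log2 fold change was 1.12 for ATP8 (SE 0.19, limma adjusted p = 0.000453), 0.79 for CYTB (SE 0.15, 0.00119) and 0.66 for COII (SE 0.15, 0.00517). It was 0.59 for ATP6 (SE 0.15, 0.00667), 0.51 for COX3 (SE 0.15, 0.0154) and 0.49 for COX1 (SE 0.13, 0.0104). All 6 calls held when any 1 library was left out. With the span slope as a covariate 4 of 6 were called, and COX3 (0.20, adjusted p = 0.189) and COX1 (0.34, adjusted p = 0.0798) were not. For that fit the share of all genes called is not given here. The 7 ND genes of complex I, the other protein genes of the mitochondrial chromosome, were called higher in 5 of 7 cases in HAS, 5 of 7 in LAS and 7 of 7 on average. Among them ND6, the 1 gene of the 13 on the minus strand, rose by 1.29 in HAS (SE 0.32, adjusted p = 0.0326) and by 1.19 in LAS (SE 0.32, 0.0163).

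The TPM of each library sums to a fixed total, so that a rise of these abundant genes by itself lowers the rest. Added up, the 13 mitochondrial genes took a mean 17.5% (HASN), 27.8% (HASI), 15% (LASN) and 22.1% (LASI) of that total. How much of the negative median change of all genes came from this was not tested. After median-ratio rescaling the median of all genes moved from -0.26 to -0.02 in HAS and from -0.33 to 0.03 in LAS. The called genes then split into 68 higher and 78 lower in HAS, against 32 and 233 before, and into 1594 higher and 2576 lower in LAS, against 289 and 3844 before. On that scale the 6 genes had log2 fold changes of 0.73 for COX3 to 1.92 for ATP8 in HAS and of 0.72 for COX1 to 1.19 for CYTB in LAS. The 6 genes are present in every cell with mitochondria, and in tissue RNA a change in the number of cells of a type and a change of RNA per cell cannot be told apart. Summed epithelial markers averaged 47446 TPM in HASN and 45419 in HASI, and 51484 in LASN and 49222 in LASI. In LAS 2 of the 12, APOB (514 to 255 TPM on average) and CDH17 (554 to 276 TPM), were called lower after injection. So were the T cell genes CD3E (191 to 136 TPM) and TRAT1 (14 to 5.53 TPM), 2 of 9 T cell and plasma cell markers. Of all genes tested, 28.9% were called lower in LAS, so neither count sets these markers apart. The T cell genes CD3D (180 to 192 TPM) and CD4 (5.44 to 5.82 TPM) were the 2 of these 9 with a positive change in LAS, and neither was called. None of either list was called in HAS, where 1.75% of all genes were called lower. The summed T cell and plasma cell markers averaged 1431 TPM in HASN and 1359 in HASI, but 2559 in LASN and 1774 in LASI. A large part of these sums was the single gene JCHAIN, at 832, 837, 1894 and 1194 TPM in the same order. The part of these markers in the result was not tested.

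**Figure D2:**
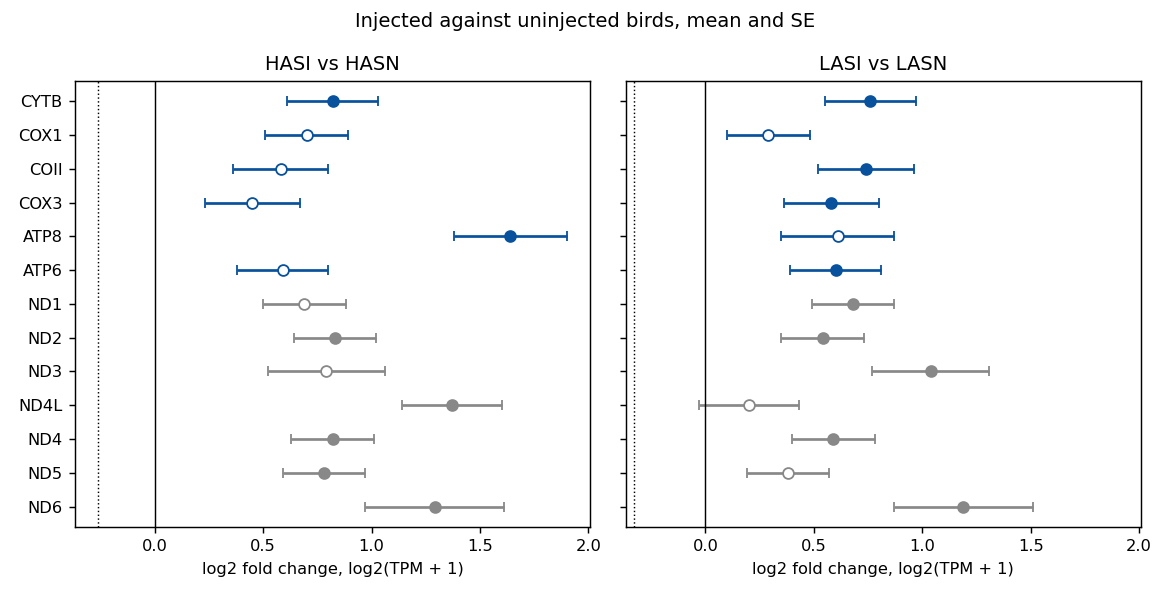
Log2 fold change of log2(TPM + 1), injected against uninjected birds, with SE, in the HAS line (left) and the LAS line (right), for the 6 genes in blue and the 7 ND genes in grey. Filled points were called at an adjusted p below 0.05 (2 of 6 in HAS and 4 of 6 in LAS), and the dotted line is the median of all genes, -0.26 and -0.33.

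The second comparison asked how the lines differed. None of the 6 levels was called between lines, with 0 of 6 between HASN and LASN, where 1.17% of all genes were called in either direction, and 0 of 6 between HASI and LASI, where 0.542% were. At an unadjusted p below 0.05 by limma, 0 of 6 passed in uninjected birds and 2 of 6 in injected birds. Of the 13279 genes tested, 1558 and 993 did so. Log2 fold changes of HASN over LASN ran from -0.47 for ATP8 (adjusted p = 0.455) to 0.40 for CYTB (adjusted p = 0.448). Those of HASI over LASI ran from 0.13 for COII (adjusted p = 1) to 0.57 for ATP8 (adjusted p = 0.634), and CYTB was at 0.47 (adjusted p = 0.607).

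The interaction, the response of HAS minus that of LAS, was called for 0 of 6 genes and for 0% of all genes tested by limma, while 606 genes had an unadjusted p below 0.05. For ATP8 it was 1.03 on the log2 scale (SE 0.37, unadjusted p = 0.0111, adjusted p = 0.75). The value of ND4L was higher still, 1.16 (SE 0.33, unadjusted p = 0.00182, adjusted p = 0.75), and the other 5 members lay between -0.16 for COII and 0.41 for COX1.

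The share of each gene in the summed TPM of the 13 mitochondrial genes removes what all of them have in common. Shares add up to 100%, so that they are not independent of each other. The 6 genes held 78.7% ± 0.858 (SD, n = 6) of the mitochondrial TPM in HASN and 76.3% ± 0.845 in HASI, and 78.9% ± 0.629 in LASN and 77.8% ± 0.889 in LASI. Complex IV genes held 51% in HASN and 47.8% in HASI, and 52.7% in LASN and 50.5% in LASI, and both complex V genes together held 19.5%, 19.5%, 19% and 19.2%. Over 24 birds the share of ATP6 varied least, with a coefficient of variation of 5.02%, and that of ATP8 most, with 35.7% and a range of 0.854% to 3.47%.

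CYTB took a larger share after injection in both lines and a larger share in HAS than in LAS. In HASN replicates 1 to 6 its share was 7.69%, 8.73%, 7.47%, 8.45%, 8.43% and 8.04%. In HASI it was 8.91%, 8.87%, 8.73%, 9.33%, 8.97% and 9.38%, with all 6 birds above all HASN birds before rounding. In LASN it was 7.77%, 7.35%, 7.05%, 7.27%, 6.82% and 6.82%, and in LASI 8.63%, 8.23%, 8.05%, 7.86%, 8.58% and 7.45%, where 1 injected bird overlapped. The share was higher by 0.894 percentage points in HASI than in HASN (exact permutation test, two-sided, p = 0.00216, the smallest that 6 against 6 allows, adjusted p = 0.0125). It was higher by 0.955 in LASI than in LASN (exact p = 0.00433, adjusted p = 0.0188), by 0.957 in HASN than in LASN (exact p = 0.00649, adjusted p = 0.0225) and by 0.897 in HASI than in LASI (exact p = 0.00216, adjusted p = 0.0125). Here and below, adjustment is over the 52 tests of 13 genes in 4 comparisons, also where a library is left out. All 4 CYTB calls held without any 1 library.

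ATP8 gained share in HAS birds. It held 1.32%, 0.89%, 1.02%, 0.912%, 0.854% and 1.21% in HASN and 2.1%, 1.83%, 1.93%, 1.86%, 2.28% and 2.02% in HASI, with no overlap. In LASN it held 1.87%, 1.4%, 1.32%, 1.37%, 3.47% and 1.19%, and in LASI 1.8%, 1.55%, 1.89%, 1.06%, 1.97% and 2%. LASN replicate 5 stood far above the other LASN birds, and LASI replicate 4 was the lowest injected bird. The HAS difference was 0.967 percentage points (exact permutation p = 0.00216, adjusted p = 0.0125), while that of LASI against LASN was -0.0591 (exact p = 0.929, adjusted p = 0.964) and turned to 0.28 without LASN replicate 5, again not past the test. HASN was below LASN by a difference of -0.735 (exact p = 0.0108, adjusted p = 0.0313), and without LASN replicate 5 that difference was -0.396 and no longer past the test (adjusted p = 0.0563). The call also ended without any 1 of HASN replicates 2 to 5 or LASN replicates 1, 2 or 4.

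COX3 lost share in HAS birds. It held 18.2%, 20%, 18.3%, 17.1%, 15.7% and 17% in HASN and 15.3%, 15.3%, 15.3%, 15.1%, 15.3% and 14.4% in HASI, with no overlap. LASN birds had 17.6%, 16.3%, 17.6%, 16.4%, 15.8% and 16.1%, and LASI birds 14.4%, 16.3%, 16.4%, 19.9%, 17.4% and 16.2%. The LASI birds spread on both sides of the LASN birds, with replicate 4 highest and replicate 1 lowest. The HAS difference was -2.61 percentage points (exact permutation p = 0.00216, adjusted p = 0.0125) and the LAS difference 0.116 (exact p = 0.868, adjusted p = 0.94). HASI was below LASI by a difference of -1.64 (exact p = 0.0152, adjusted p = 0.0394), a call that ended when the span slope was taken out of the shares, with TPM times gene length and without any 1 HASI bird or any 1 of LASI replicates 2 to 6. The difference was -1.02 without LASI replicate 4.

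COX1 lost share in LAS birds. It held 22.8%, 23.3%, 20.9%, 22.9%, 23% and 24% in LASN and 21.5%, 20%, 19.4%, 14.6%, 16% and 21.6% in LASI, where replicates 4 and 5 were lowest. HASN birds had 19.7%, 14.8%, 20.2%, 19.8%, 22.1% and 19.8%, with replicate 2 apart from the others. HASI birds had 18.5%, 22%, 19.1%, 19.6%, 18.5% and 20%. The difference of LASI from LASN was -3.98 percentage points (exact permutation p = 0.00649, adjusted p = 0.0225), that of HASN from LASN -3.43 (exact p = 0.00433, adjusted p = 0.0188) and that of HASI from HASN 0.22 (exact p = 0.887, adjusted p = 0.942).

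COII gained share in LAS birds. It held 12.8%, 13.2%, 13.9%, 13.4%, 13.5% and 12.7% in LASN and 13.6%, 14.6%, 14.2%, 18.1%, 14.6% and 14% in LASI. It lay at 13%, 13.1%, 13.1%, 13%, 13.1% and 12.8% in HASI, a narrow range that was below every LASI bird, and at 14.1%, 15.5%, 15%, 12.7%, 12.7% and 13.3% in HASN. The difference of LASI from LASN was 1.62 percentage points (exact permutation p = 0.00433, adjusted p = 0.0188) and that of HASI from LASI -1.86 (exact p = 0.00216, adjusted p = 0.0125). LASI replicate 4, which had the highest COII and COX3 shares and the lowest COX1 and ATP8 shares of its group, was also the library with 10798 TPM of smooth muscle markers. Without it, the COII differences were 0.97 between LASI and LASN and -1.2 between HASI and LASI, both still past the test. The part of muscle in these shares was not tested.

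The ATP6 share averaged 18.5% ± 0.643 in HASN and 17.5% ± 0.76 in HASI, and 17.3% ± 0.877 in LASN and 17.5% ± 0.896 in LASI (SD, n = 6). HASN exceeded LASN by 1.21 percentage points (exact permutation p = 0.013, adjusted p = 0.0355), with overlap, a call that ended without any 1 of HASN replicates 2, 4, 5 or 6 or LASN replicates 1, 2, 4 or 5. The difference of HASI from HASN was -1.0 (exact p = 0.0346, adjusted p = 0.075), and -1.19 and past the test without HASN replicate 1 (adjusted p = 0.0409).

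**Figure D3:**
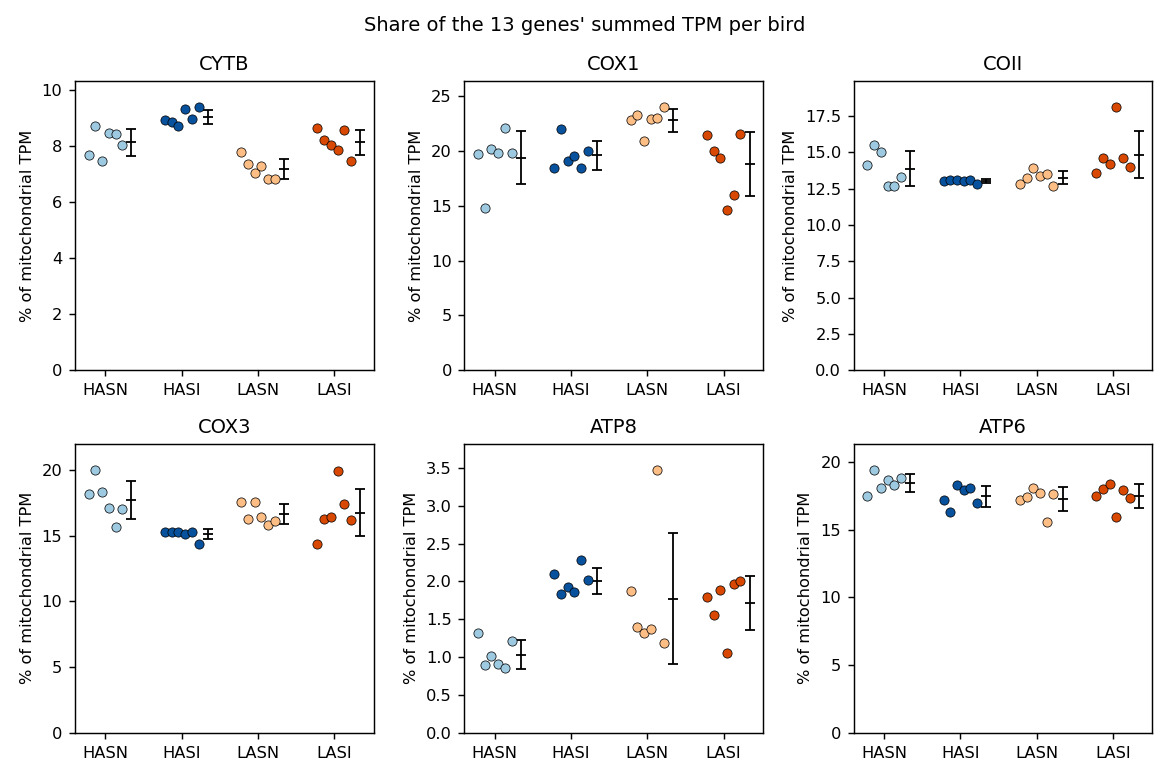
Share of each gene in the summed TPM of the 13 mitochondrial genes, in percent, for each bird by group, with points from replicate 1 to 6 and mean ± SD (n = 6). All HASI birds lie above all HASN birds for CYTB and ATP8 and below them for COX3, and LASN replicate 5 stands apart at 3.47% for ATP8.

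The response of the shares to injection differed between the lines for 4 of the 6 genes. How many ND genes passed the same interaction test is not given here, so this count does not set the 6 genes apart. The COII share differed by -0.886 percentage points between HASI and HASN, not past the exact permutation test (adjusted p = 0.232), and by 1.62 between LASI and LASN. In a permutation test of the interaction with 100000 permutations of residuals, this gave an interaction of -2.51 for COII (p = 0.00042, adjusted over 13 genes 0.00273). The interaction was 1.03 for ATP8 (adjusted p = 0.00836), -2.73 for COX3 (adjusted p = 0.0174) and 4.2 for COX1 (adjusted p = 0.0285). It was -1.24 for ATP6 (adjusted p = 0.0909) and -0.0608 for CYTB (adjusted p = 0.844). When the span slope was taken out, COII (-1.87), ATP8 (0.967) and COX3 (-1.9) passed, and COX1 did not (2.93, adjusted p = 0.0563). The COX1 call also ended without HASN replicate 2, HASI replicate 2 or LASN replicate 6 (3.29, 3.73 and 3.96). These COX1 calls ended only with the adjustment over 13 genes. With the planned adjustment over the 6 genes, COX1 passed with the slope taken out (adjusted p = 0.039). It also passed without each of these libraries (adjusted p = 0.0406, 0.0426 and 0.0364). ATP6 passed as well when shares were taken of TPM times gene length (-1.35, adjusted p = 0.0175) and without LASI replicate 4 (-1.56, adjusted p = 0.0285). Without LASN replicate 5 the ATP8 interaction was 0.687 and still past the test. For COII, HASN replicates 1 to 3 had the highest shares of their group, 14.1%, 15.5% and 15%. Over other settings the COII difference of HASI from HASN ran from -1.21 to 0.0803. The COII interaction without these libraries together is not given here.

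Shares of 2 of the 6 genes moved with the span slope over 24 libraries, among 13 relations computed by permutation. For COX1 Pearson's r was 0.730 (p = 5e-05, adjusted p = 0.000325) and Spearman's rho 0.717 (p = 0.00011). For COII r was -0.580 (p = 0.00124, adjusted p = 0.00403) and rho -0.645 (p = 0.00101). With the 2 libraries of most extreme slope left out, r was 0.756 and -0.569, and within groups it was 0.637 and -0.640. For COX3 r was -0.354 over all libraries (p = 0.091, rho -0.277, p = 0.191, adjusted p = 0.148) and -0.699 within groups. For ATP8 r was 0.037 (p = 0.869, rho -0.081, p = 0.706). Shares of several ND genes moved with the slope too, so the relation is not particular to the 6 genes. The strongest of the 13 relations was that of an ND gene (r = -0.739, permutation adjusted p = 0.00026). ND6 passed as well (r = -0.645, adjusted p = 0.00143), and ND4L did not (r = 0.420, adjusted p = 0.0899). After the slope was taken out of the shares, the 3 HAS differences of CYTB, COX3 and ATP8 were still past the test and COII passed too, with a difference of -1.21. The LAS differences of COX1 (-2.08) and COII (0.663) were not, nor were the uninjected line differences of COX1 (-2.34), ATP8 (-0.684) and ATP6 (1.15). CYTB passed in all 4 comparisons.

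ATP8 and ATP6 lie on 1 message in vertebrates, and their ratio compares neighbours. ATP8 TPM was 7.55%, 4.6%, 5.66%, 4.88%, 4.65% and 6.42% of ATP6 TPM in HASN and 12.2%, 11.2%, 10.5%, 10.4%, 12.6% and 11.9% in HASI. It was 10.8%, 8.06%, 7.33%, 7.78%, 22.3% and 6.73% in LASN and 10.3%, 8.59%, 10.2%, 6.7%, 11% and 11.6% in LASI. The HAS groups did not overlap, and 1 LASN bird, replicate 5, was far above all other birds. The log2 ratio was higher by 1.05 in HASI than in HASN (exact permutation test, two-sided, p = 0.00216, adjusted over 4 comparisons 0.00866). It differed by -0.78 between HASN and LASN (exact p = 0.00649, adjusted p = 0.013), by 0.26 between HASI and LASI (exact p = 0.0519, adjusted p = 0.0693) and by 0.01 between LASI and LASN (exact p = 0.983, adjusted p = 0.983). Over single libraries left out, the difference between LASI and LASN ran from -0.09 to 0.25 and never passed (exact permutation test, lowest adjusted p = 0.165). That between HASN and LASN ran from -0.88 to -0.54 and stayed past the test (adjusted p up to 0.026). The interaction was 1.04 (permutation p = 0.00053).

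ND4L, a short subunit gene of complex I whose end overlaps ND4, is set beside it as another short gene next to a long one. Its log2 ratio to ND4 averaged -2.17 ± 0.30 in HASN and -1.63 ± 0.10 in HASI, and -1.63 ± 0.32 in LASN and -2.02 ± 0.45 in LASI (SD, n = 6). LASN replicate 5, with the highest ATP8 ratio, also had the highest ND4L ratio, -1.08. The part of short gene length in the ATP8 and ND4L values was not tested. The ND4L share rose by 0.567 percentage points from HASN to HASI (exact permutation p = 0.00216, adjusted p = 0.0125), and the difference of LASI from LASN was -0.278 (exact p = 0.18, adjusted p = 0.283).

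**Figure D4:**
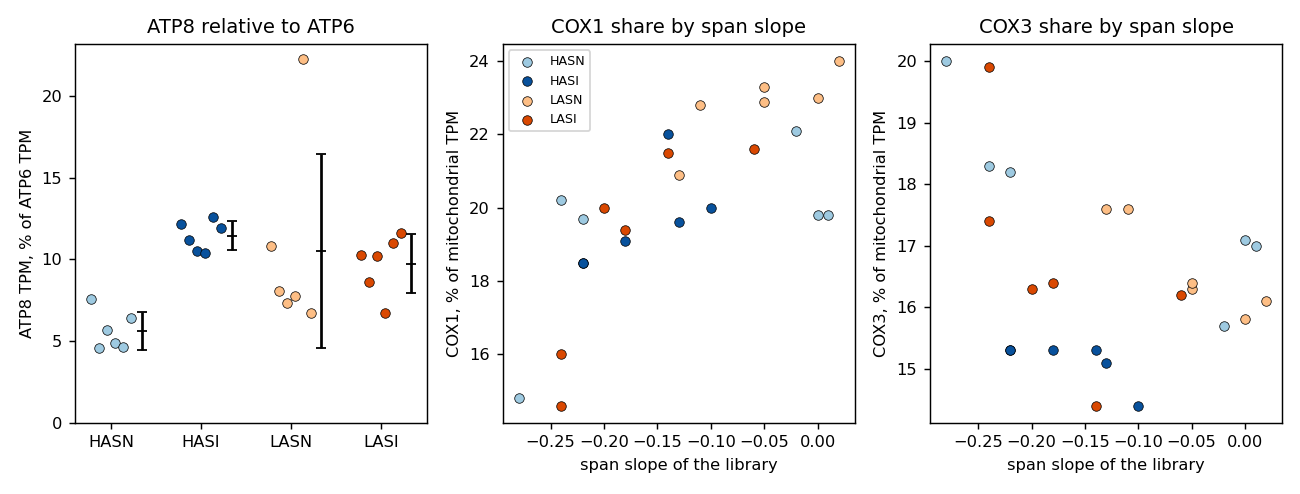
Left, ATP8 TPM as a percentage of ATP6 TPM per bird with mean ± SD (n = 6): HASN birds lie between 4.6% and 7.55% and HASI birds between 10.4% and 12.6%. Middle and right, the COX1 and COX3 shares (%) against the span slope of each library (r = 0.730 and -0.354 over 24 libraries).

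In HASN the nuclear subunits of complexes III, IV and V summed to 1.39% ± 0.452 of all TPM, and they summed to 1.36% ± 0.131 in HASI, 1.26% ± 0.179 in LASN and 1.55% ± 0.306 in LASI (SD, n = 6). The log2 ratio of the 6 mitochondrial genes over these subunits averaged 3.34 ± 0.17 in HASN and 3.93 ± 0.40 in HASI, and 3.21 ± 0.25 in LASN and 3.47 ± 0.33 in LASI. No test of this ratio was made.

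In HAS birds none of the 8 complex III, 10 complex IV and 14 complex V nuclear subunits was called after injection by limma. None had an unadjusted p below 0.05, beside 2197 of the 13279 genes tested. Their median log2 fold changes were 0.08, 0.05 and 0.00, beside -0.26 for all genes. Of all genes 0.241% were called higher there and 1.75% lower. In LAS birds 0 of 8, 1 of 10 and 0 of 14 were called higher and 0 lower, against 2.18% and 28.9% of all genes. The medians were 0.26, 0.30 and 0.13 beside -0.33. An unadjusted p below 0.05 by limma was found for 1, 3 and 2 of them, beside 6091 of the 13279 genes tested. The called gene was COX7B, a small subunit of complex IV, which rose by 0.53 (SE 0.20, adjusted p = 0.0465). On average over the lines, 2.33% of all genes were called higher. On that average UQCR10 of complex III rose by 0.55 (adjusted p = 0.0352), COX7B by 0.40 (0.0293) and COX5B, another complex IV subunit, by 0.46 (0.0476). With the span slope as a covariate none of these calls held, and the list medians turned to between -0.13 and -0.07. Without HASN replicates 1 to 3, chosen after seeing the data, 5 of 8, 5 of 10 and 4 of 14 were called higher and 0 lower in HAS, where 2.76% of all genes were then called higher and 53.9% lower.

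Of 24 assembly factors, proteins that help to build the complexes, 0 were called in HAS. There 1 had an unadjusted p below 0.05 by limma, beside 2197 of the 13279 genes tested. In LAS 0 were called higher and 1 lower, beside 2.18% and 28.9% of all genes. The lower gene was PET117, an assembly factor of complex IV, at 0 to 3.39 TPM in LASI and 1.57 to 7.71 TPM in LASN (adjusted p = 0.0266). On average over the lines 2 of 24 were called higher and 1 lower, beside 2.33% and 38.8% of all genes. Averaged over lines, COX20 rose by 0.24 (adjusted p = 0.0223) and COX16 by 0.36 (0.0474), and COX11, which delivers copper to COX1, fell by 0.20 (0.0265), with a sign that turned after median-ratio rescaling (0.15, adjusted p = 0.235). None of these 4 calls held with the span slope as a covariate.

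Of 21 nuclear genes for mitochondrial transcription, RNA processing and RNA stability, 0 were higher and 1 lower in HAS, beside 0.241% and 1.75% of all genes. In LAS 1 was higher and 3 were lower, beside 2.18% and 28.9% of all genes. FASTK, whose mitochondrial form acts on ND6 RNA in mammals, fell in both lines, by 0.60 in HAS (SE 0.14, limma adjusted p = 0.0206) and by 0.55 in LAS (SE 0.14, 0.0138). Its LASI birds, at 22.2 to 30.7 TPM, did not overlap with its LASN birds, at 35.2 to 40.9 TPM. After median-ratio rescaling neither FASTK call held (-0.33, adjusted p = 0.193, and -0.13, adjusted p = 0.387). In LAS, POLRMT, the mitochondrial RNA polymerase, fell by 0.81 (SE 0.26, 0.0267). SLIRP, which in mammals stabilises mitochondrial messages together with LRPPRC, rose by 0.65 (SE 0.25, 0.0489). PDE12, which trims poly(A) tails in mitochondria and was named after its value was seen, fell by 0.82 (0.0489). With the span slope as a covariate none of the 21 was called in LAS, and the share of all genes called in that fit is not given here. Without HASN replicates 1 to 3, 1 of 21 was higher and 13 were lower in HAS, beside 53.9% of all genes lower. On average 1 of 21 was higher and 8 were lower, with a median of -0.29, the same as that of all genes, of which 38.8% were called lower. After median-ratio rescaling 5 were higher and 2 lower, beside 13.5% and 19.9% of all genes, and FASTKD2, lower by a log2 fold change of -0.34 at first (adjusted p = 0.0134), stood at 0.01.

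Of 16 genes that copy and maintain mitochondrial DNA, 0 were called in HAS. There 2 had an unadjusted p below 0.05 by limma, beside 2197 of the 13279 genes tested. In LAS 2 were lower, beside 28.9% of all genes. These were TK2, a mitochondrial thymidine kinase, which fell by 1.54 (SE 0.48, limma adjusted p = 0.0244), and RRM2B, a ribonucleotide reductase subunit, which fell by 0.73 (SE 0.24, 0.0313). Neither call held with the span slope as a covariate (0.193 and 0.568). Without HASN replicates 1 to 3, 1 of 16 was higher and 8 were lower in HAS, beside 2.76% and 53.9% of all genes. On average 4 were lower, beside 38.8% of all genes, with a median of -0.28, and after rescaling 4 were higher and 1 lower, beside 13.5% and 19.9% of all genes. TWNK, the mitochondrial helicase, fell by 0.34 on average (adjusted p = 0.0101) and stood at 0.00 after rescaling. POLG, the DNA polymerase of mitochondria, was the remaining called gene. Between lines, 0 genes of all these lists were called in uninjected or in injected birds. Of all genes tested, 1.17% and 0.542% were called there in either direction, so the 0 does not set these lists apart.

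**Figure D5:**
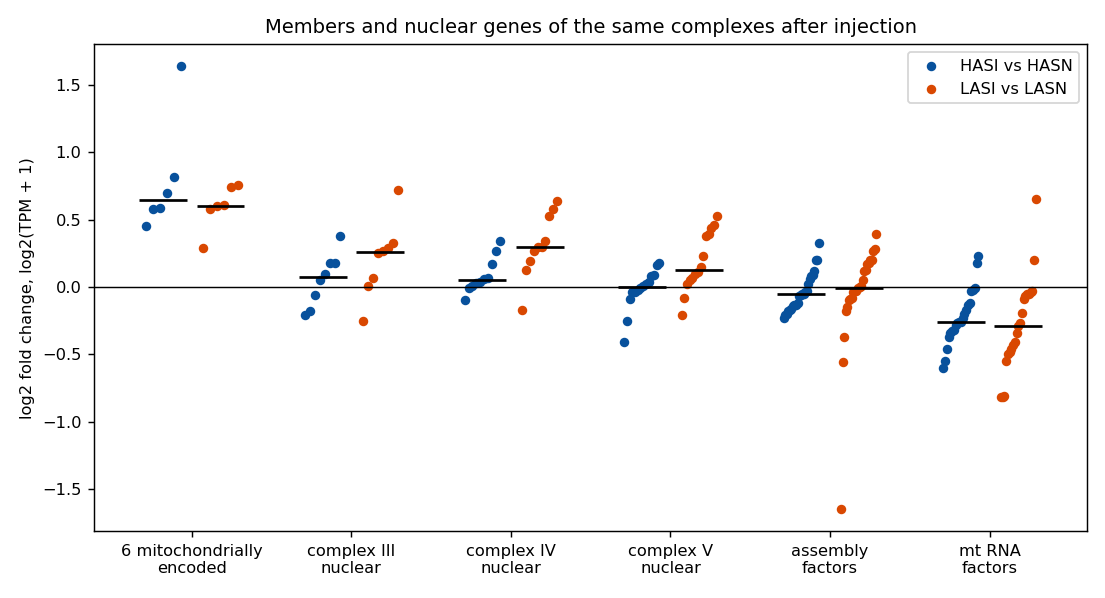
Log2 fold change of log2(TPM + 1) after injection in HAS (blue) and LAS (orange) for the 6 mitochondrially encoded genes, the nuclear subunits of complexes III, IV and V, their assembly factors and the nuclear genes of mitochondrial RNA. Each point is a gene and each bar a median: 0.64 and 0.60 for the 6 genes, and between -0.29 and 0.30 for the other lists.

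Among 8372 genes outside the mitochondrial chromosome that carry a symbol and average 5 TPM or more, the summed level of the 6 genes correlated positively with 1384, and the median Pearson r over 24 libraries was -0.679. The most alike were GnRH-I (r = 0.825, within groups 0.795), MRPL58 (0.781), a protein of the mitochondrial ribosome, NDUFAB1 (0.780), a nuclear subunit of complex I, TPM4 (0.778), a tropomyosin, and SEM1 (0.766), a proteasome subunit. The least alike were NUP107 (-0.927) of the nuclear pore, SCAP (-0.925), an escort of sterol-regulated transcription factors, FKBP4 (-0.924), a co-chaperone, ZMAT2 (-0.923) and RNPC3 (-0.921), both of the spliceosome. These are descriptions over libraries that share the fixed total of TPM.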

How the data were processed

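RNA from the jejunum of 24 chickens was sequenced, and the deposited table gives 1 column per bird. The authors deposited TPM values, a unit read from the values themselves, whose columns all sum to nearly the same total. Per the submitters' processing notes the build was galGal 6. Aligner, counting tool, annotation, strandedness and the treatment of reads that also match nuclear copies of mitochondrial DNA are not given in the sources used here. No counts are given, so depth is unknown and no counting intervals can be had. The labels do not say more of replicates than 1 sample per number, and p-values measure the spread between these samples.

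A gene was tested if 6 or more libraries had 0.5 TPM or more of it (13279 of 15618). log2(TPM + 1) was fitted with limma 3.58.1 in R 4.3.3 over all 24 libraries, with 1 mean per group, trend and robust moderation and 20 residual degrees of freedom. Tests were two-sided, adjusted by Benjamini and Hochberg over all tested genes, and called at 0.05. Fold changes on this scale understate those of low genes. Shares of the mitochondrial TPM were compared by exact permutation over the 924 splits of 6 against 6. With all libraries in, the planned adjustment over 24 tests of the 6 genes gave the same calls as that over 52. With single libraries left out they differed. The ATP8 and ATP6 share differences between HASN and LASN then stayed past the planned adjustment (exact permutation test, adjusted p up to 0.0433 and 0.048). Over 52 tests they did not. Planned tests on sums over the 6 genes were not run, and those values are descriptions. Python 3.11.15 with numpy 2.4.6 was used, and the fit was tested on simulated data.

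The 6 genes and all lists were chosen with earlier results of these data known. All 6 are named, and of each list the 3 called genes with the smallest adjusted p in a comparison, with ND4L and ND6 of the ND genes, and the 5 genes most and least like the 6. Lists were matched by symbol (8 of 9 complex III, 10 of 18 complex IV and 14 of 19 complex V subunits, 24 of 33 assembly factors, 21 of 27 RNA and 16 of 17 DNA genes). T cell and plasma cell markers summed to between 852 and 3220 TPM and red blood cell markers to between 183 and 1280 TPM. Alternatives were median-ratio rescaling, scaling over genes outside chromosome MT, other filters, a pseudocount of 0.1, only the groups compared, a replicate block, 2 covariates (span slope and chromosome W level), other denominators for the shares and each library left out. HASN replicates 1 to 3, and LASI replicates 4 and 6, were also left out together, both chosen after seeing the data.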

Additional observations from a re-analysis of the deposited data

Results flagged for a closer look

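Among 56 groups of 6 values examined, 5 held a bird far from the others of its group, by the gap to the nearest bird relative to the group's range (Dixon's test), and chance alone gives about 1 in 20. The COX1 share of HASN replicate 2 was 14.8%. The COII share of LASI replicate 4 was 18.1%, in the library with the highest smooth muscle markers. The COX3 share of HASI replicate 6 was 14.4%. LASN replicate 5 had an ATP8 share of 3.47% and an ATP6 share of 15.6%.

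The response of the share to injection differed between HAS and LAS by a test of the interaction for 4 genes. It was 4.2 percentage points for COX1, -2.51 for COII, -2.73 for COX3 and 1.03 for ATP8, each as the HAS response minus the LAS response. How many ND genes passed that test is not given here, so the count does not set these genes apart.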

How the results depend on the processing

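Depth is unknown, and the libraries differ in span slope, which moved with several comparisons. In the HAS line the number of the 6 levels called after injection (2) became 1 after median-ratio rescaling, 1 with scaling over genes outside chromosome MT, 1 with only the groups compared, 5 with the replicate block, 5 with the span slope as a covariate and 6 without HASN replicates 1 to 3, and ran from 1 to 3 over single libraries left out. In the LAS line the number (4) became 0 with the span slope and ran from 0 to 4 over single libraries. Other settings also moved the 2 genes not called there. The limma adjusted p of ATP8, 0.0798 at first, ran from 0.0225 to 0.609 over them, so that ATP8 passed in some. That of COX1, 0.236 at first, ran from 0.069 to 0.897 and never passed. The share of all genes called higher depends on the setting too. It was 0.241% in HAS and 2.18% in LAS at first, and 2.76% in HAS without HASN replicates 1 to 3. For most other settings it is not given here, so these counts are no result about the 6 genes alone. The level changes of the 6 genes after injection stayed positive in both lines under every alternative run. Among the named level changes that had passed the test, those of COX11 (0.15), FASTKD2 (0.01) and TWNK (0.00, just above it) changed sign on average after rescaling. Several differences that had not passed changed sign too, among them the ATP8 share between LASI and LASN (-0.176 to 0.28 over single libraries) and the COX1 share between HASI and HASN. Why the calls changed was not tested.

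The labels do not say whether replicate numbers pair the birds, and the main tests took the birds as unpaired. Same-numbered birds deviated together (r over 0.1) in 4, 2, 4 and 2 of 6 pairs, with r from -0.51 to 0.68. In each comparison 3 of 12 libraries correlated best with their own number. With so few pairs, these values cannot settle whether the numbers mark a pairing. With the replicate block as a sign-flip test of 6 pairs, whose smallest p is 0.0312, 0 shares passed in each of the 4 comparisons, a limit of that test. The log2 ratio of ATP8 over ATP6 between HASI and LASI (0.26) passed with the replicate block (0.26, adjusted p = 0.0417) and ran from 0.15 to 0.31 over single libraries. Taking the span slope out left 1 share past the test between LASI and LASN (3 before) and 1 between HASN and LASN (4 before), and leaving out HASN replicates 1 to 3 left 2 of the latter. Both were chosen after seeing the data. These counts of shares used the planned adjustment over 24 tests.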
